A study of Sus scrofa with 4 samples.

Results

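The genes examined here encode 3 subunit families of the canonical BAF chromatin remodelling complex: ARID1A and ARID1B, DPF1, DPF2 and DPF3, and BCL7A, BCL7B and BCL7C. Open chromatin at them was taken as every ATAC-seq peak that overlapped a RefSeq gene model (Sscrofa11.1) with 10 kb on both sides. All 8 genes were found among 19550 protein-coding models, and their windows held 99 of the 121788 regions of the series. ATAC-seq maps open chromatin through the cuts of the Tn5 transposase. The BRG1 group was 2 libraries labelled pTK-642-BRG1 (BRG1 1 and BRG1 4), from porcine fetal fibroblasts (PFFs, from skin) of the genotype BRG1-overexpressed. The control group was 2 libraries labelled pTK-642 (control 1 and control 4), from PFFs of the genotype WT. All 4 came from cells under serum starvation. The study asked whether more BRG1 in these donor cells of nuclear transfer alters chromatin openness. Whether the 2 libraries of a group were grown as separate cultures is not stated in the labels, so their spread may be technical. The promoter of the introduced gene is not stated either.

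BAF complexes use the ATPase BRG1, encoded by SMARCA4, or its paralog BRM to slide and evict nucleosomes. ARID1 subunits define the canonical form of the complex: a complex holds either ARID1A or ARID1B, which scaffold its core and contact DNA. DPF subunits carry tandem PHD fingers that bind modified histone tails, and they too exclude each other. DPF2 is the widely expressed member, while DPF1 and DPF3 are best known from neurons and from heart and skeletal muscle in mouse and zebrafish. BCL7 proteins are small subunits that sit with the ATPase and occur in every form of the complex. BCL7A was named from a human B-cell lymphoma, and BCL7B lies in the human Williams syndrome interval with its neighbours BAZ1B and TBL2.

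The peak lists held 96367 peaks in BRG1 1, 90851 in BRG1 4, 107475 in control 1 and 105954 in control 4. Absolute depth is unknown. Relative to control 1, depth read from the lowest background of each list was 81.2% in BRG1 1, 92.6% in BRG1 4 and 93.5% in control 4. BRG1 4 stood apart by its wide peaks, with a median of 541 bp, against 404 bp in BRG1 1, 403 bp in control 1 and 396 bp in control 4. A peak missing from a list was not called at that depth, which does not show closed chromatin. In bulk nuclei, fewer open cells and less opening per cell cannot be told apart. An end of SMARCA4 was open in each of the 4 libraries, at percentiles of 94.6 in BRG1 1, 92.4 in BRG1 4, 94.5 in control 1 and 93.7 in control 4 of the list's peaks by −log10 p. A peak list does not measure the expression of BRG1. Among fibroblast markers, 10 of 12 had a peak within 1 kb of a gene end in all 4 libraries, the exceptions being FN1 and DCN, beside 68.2% of all genes. The same held for 0 of 3 keratinocyte, 1 of 4 endothelial, 2 of 4 skeletal muscle, 3 of 4 immune, 2 of 4 melanocyte and 3 of 3 neural markers that matched the gene table.

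Open chromatin at the 8 genes was for the most part called in both groups. Peaks of the 4 lists were merged into regions wherever they overlapped. Of the 99 regions, 66 (66.7%) were called in all 4 libraries, beside 61.8% of all regions of the series. Just 1 region was BRG1-only, meaning a peak in both BRG1 libraries and in neither control, beside 0.741% of all regions. Control-only regions, defined the opposite way, numbered 5 (5.05%), beside 4.41% of all regions. Another 15 regions (15.2%) had a peak in 1 library, beside 16.4% of all regions. The BRG1-only count was 4 without BRG1 1, 2 without BRG1 4 and 2 without control 1. The control-only count was 9 without BRG1 1, 11 without control 1 and 10 without control 4. Without a library the rule asks for a call or an absence in 1 library fewer, which favours higher counts. The share of all regions under that looser rule was not counted. The shares from all 4 libraries lay near those of the whole series, and they are read as a description of the 8 genes without a test.

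**Figure D1:**
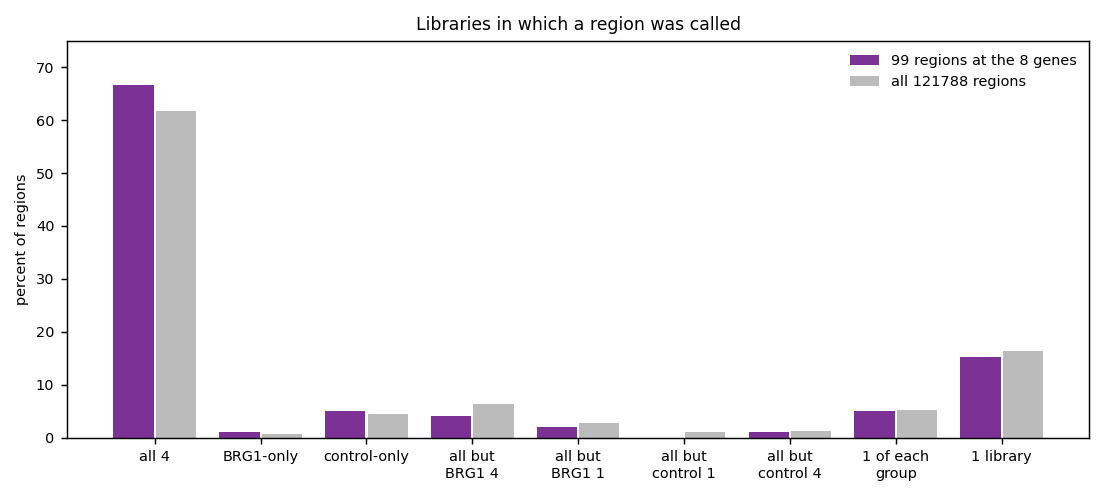
Percent of regions (vertical axis) by the libraries in which they were called, for the 99 regions at the 8 genes (purple) and all 121788 regions (grey). Regions called in all 4 libraries made up 66.7% and 61.8%, and each of the other classes differed less between the 8 genes and the series.

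The windows of the 8 genes together held 78 peaks in BRG1 1, 77 in BRG1 4, 88 in control 1 and 86 in control 4. Both BRG1 libraries lay below both controls, averaging 77.5 ± 0.707 peaks for BRG1 and 87 ± 1.41 peaks for control (SD over 2 libraries). The ratio of 0.891 stood beside 0.877 for all peaks of the series. It was 0.968 with lists cut to 90851 peaks each, the length of the shortest, and turned to 1.08 with 45425 peaks each. Length under peaks did not follow that order: it was 40.9 kb in BRG1 1, 47.4 kb in BRG1 4, 47.1 kb in control 1 and 44.4 kb in control 4. The ratio of BRG1 to control length was 0.964, from 44.1 ± 4.59 kb for BRG1 and 45.8 ± 1.90 kb for control (SD over 2 libraries), and the groups overlapped. Leaving out BRG1 1 turned it to 1.03. Lists cut to 90851 peaks each turned it to 1.00, and 45425 peaks each to 1.11. BRG1 4 had the widest peak at 36 of the 66 regions called in all 4 libraries (54.5%), beside 51.7% of such regions in the series. Its part in the length was not tested.

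Position within the list was used to describe strength. Each peak was given the percentile of its −log10 p within its own list, where 100 is the strongest, and the tags stacked at its summit were recovered as a measure of its depth. Percentiles of lists of different lengths show no change between groups. Shared regions, those of all 4 lists, reached a median percentile of 66.4 in BRG1 1, 65.3 in BRG1 4, 65.8 in control 1 and 68.2 in control 4. Over all such regions of the series it was 60.4, 58.4, 64.4 and 63.9 in the same 4 libraries. Summits at the 66 regions were placed within a median of 39 bp of each other across the 4 libraries, beside 43 bp in the series. The 15 regions called in 1 library were weak, at percentiles of 0.310 to 35.9 with 8 to 30 tags at the summit, and 3 of them lay within 500 bp of a region called in all 4.

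The share of regions present in all 4 lists is given by family. The BCL7 genes shared 18 of 20 (90%), the ARID1 genes 30 of 49 (61.2%) and the DPF genes 18 of 30 (60%). ARID1B and DPF3, whose models are the longest, shared 29 of 53 regions (54.7%) and held 11 of the 15 regions called in 1 library. The other 6 genes shared 37 of 46 (80.4%). Inside the models and away from their ends, 40 of 67 regions (59.7%) were shared, against 16 of 19 in the flanks and 10 of 13 within 1 kb of a gene end. Most regions inside models lay in ARID1B and DPF3, so the split by position partly repeats that by gene. Shares by position were not counted over the series. These counts describe 8 loci, whose regions are not replicates, and were not tested.

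**Figure D2:**
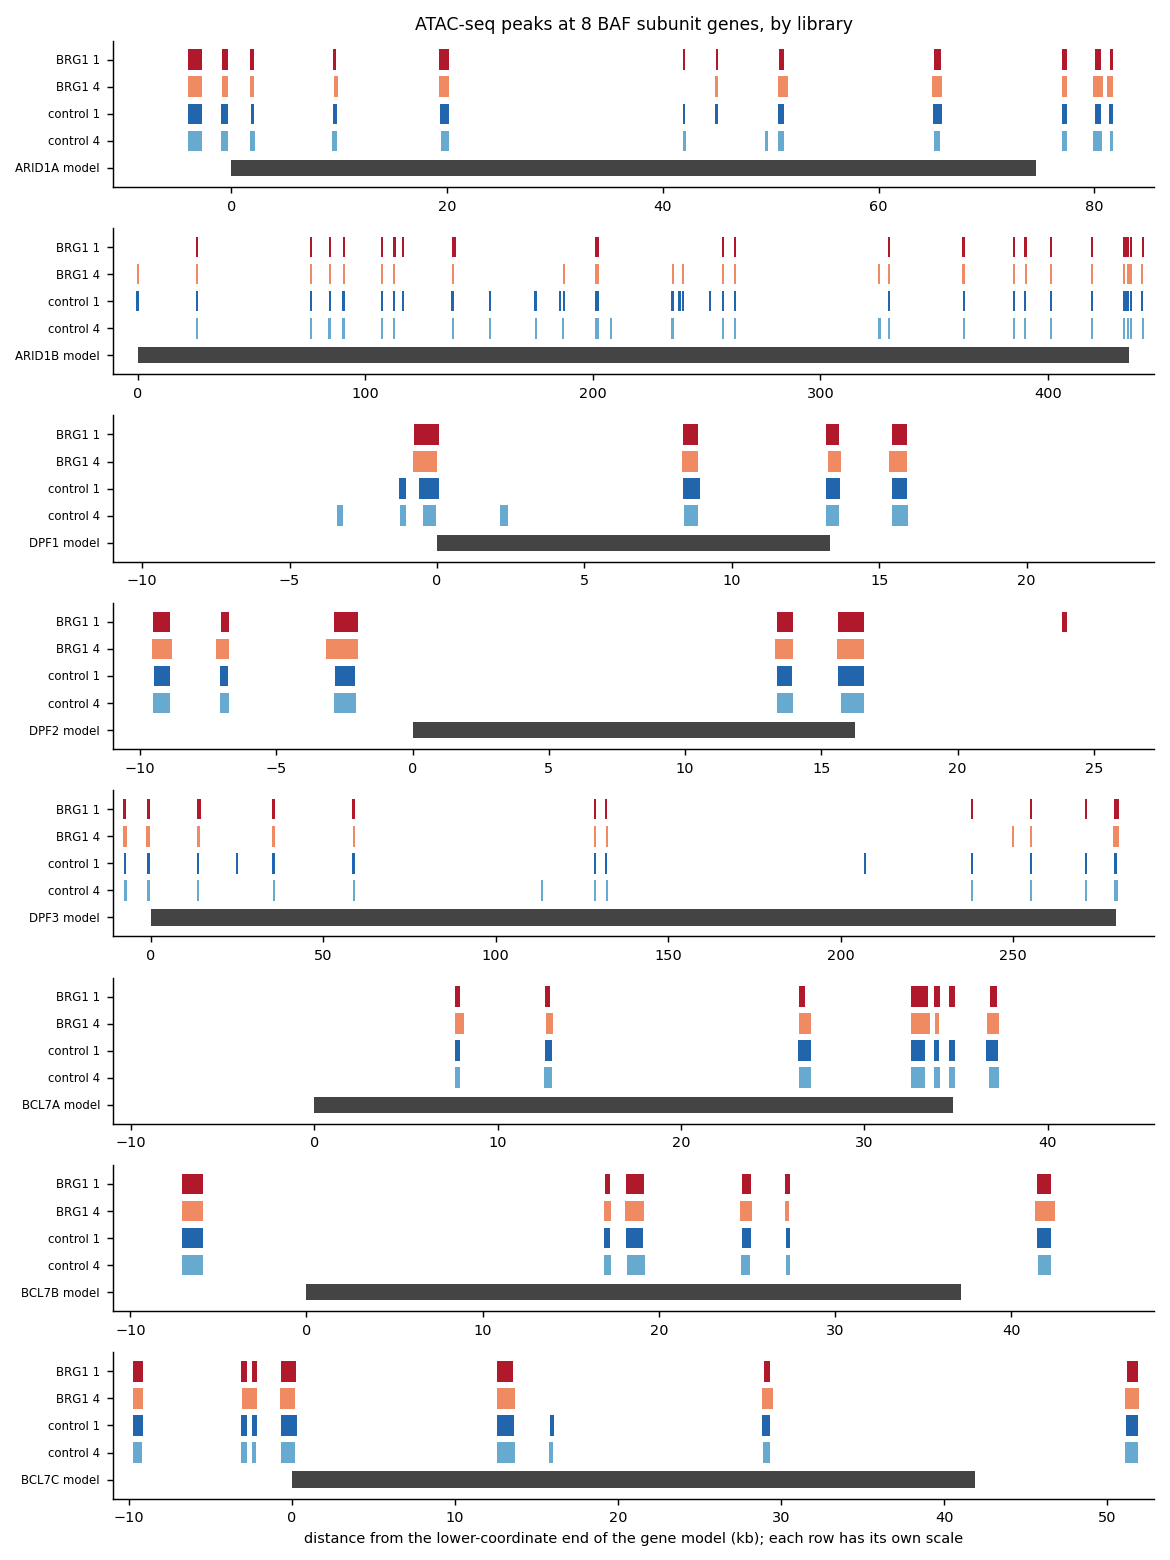
Peaks of each library (coloured boxes) along the 8 gene models (dark bars) with 10 kb on both sides; the horizontal axis is the distance from the lower-coordinate end in kb, on a scale of its own for each gene. Most peaks line up across the BRG1 libraries (reds) and the control libraries (blues), and every peak of BCL7B has a counterpart in all 4 libraries.

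Gene ends were examined next, because a promoter lies at an end of its gene. The gene table gives no strand, so neither end could be called the start, and exons, introns and UTRs could not be assigned. A peak within 1 kb of an end was present in all 4 libraries at 7 of the 8 genes, beside 68.2% of all genes. With lists cut to 45425 peaks each it was present at 4 of the 8, and the share of all genes was not counted at that length. With the full lists the exception was BCL7B, which had such a peak in no library, as did 25.8% of all genes. None of the 8 had gene-end peaks in both libraries of 1 group and neither of the other, a pattern found at 0.199% (BRG1) and 0.532% (control) of all genes.

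**Figure D3:**
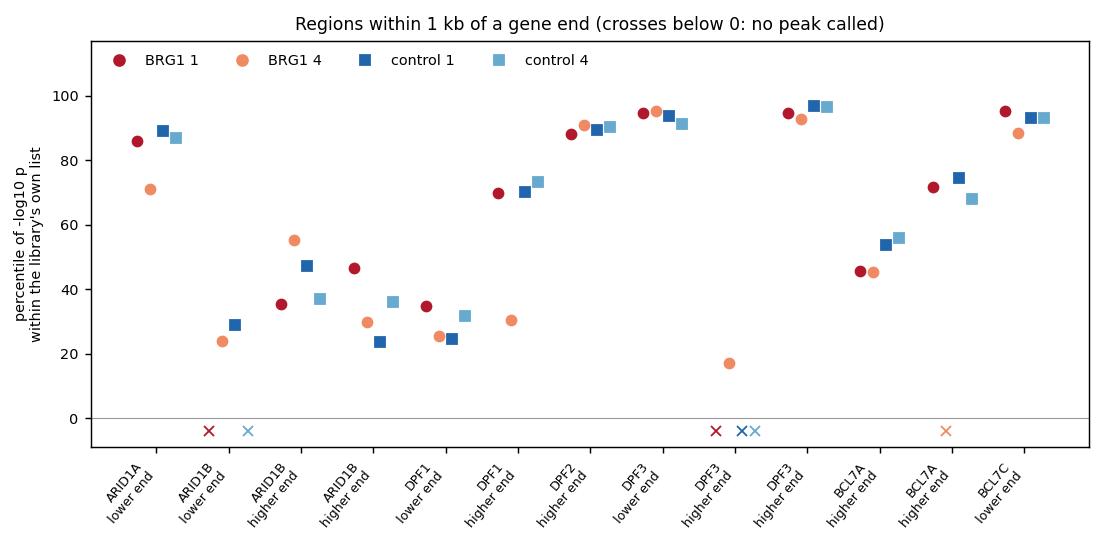
Percentile of −log10 p within each library's own list (vertical axis) for the 13 regions within 1 kb of a gene end, with BRG1 libraries as circles, control libraries as squares and missing peaks as crosses below 0. The ends of ARID1A, DPF2, DPF3 and BCL7C that were open in all 4 libraries lay between percentiles 71.2 and 96.9. Among regions called in all 4, BRG1 4 lay lowest at ARID1A, BCL7C, the higher ends of DPF1 and DPF3 and 1 region of BCL7A. It had no peak at the other region of BCL7A. It lay highest at DPF2 (90.9), the lower end of DPF3 (95.2) and 1 region at the higher end of ARID1B (55.1). Another region at the higher end of DPF3 was called in BRG1 4 alone, at percentile 17.0.

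ARID1A, the more widely mutated ARID1 gene in human cancers, spans 84049729 to 84124302 on chromosome 6. Its window held 13 regions, 10 of them shared by all 4 lists, and none was BRG1-only or control-only. Peaks numbered 12 in BRG1 1, 11 in BRG1 4, 12 in control 1 and 12 in control 4, so the groups overlapped. A region at the lower-coordinate end (84048758 to 84049435, 294 bp outside the model) lay at percentiles of 85.9 in BRG1 1 and 71.2 in BRG1 4, against 89.1 in control 1 and 86.7 in control 4. It had 189 and 124 tags at the summit in the BRG1 libraries and 235 and 207 in the controls. BRG1 4 stood lowest there, and BRG1 1 lay close to the controls.

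The highest-ranked region of ARID1A lay inside the model, 19.2 kb from that end (84068947 to 84069943), at percentiles of 97.6 in BRG1 1, 96.3 in BRG1 4, 98.3 in control 1 and 98.7 in control 4. Another strong region (84045697 to 84046994) lay 2735 bp outside the same end, at 90.3 and 96.0 in BRG1 and 90.7 and 89.2 in control libraries. Its summits were spread over 605 bp, the widest spread of the 66 regions called in all 4 libraries. Weaker regions of ARID1A varied by library. The region from 84059083 to 84059595 was called in all 4, but at percentiles of 23.7 in BRG1 1 and 0.250 in BRG1 4, against 39.7 in control 1 and 49.7 in control 4. A region from 84091556 to 84091850 was missing in BRG1 4, and another from 84094577 to 84094840 was missing in control 4. At the far side of the window, 2 shared regions overlapped PIGV, which encodes an enzyme of GPI anchor synthesis, and 1 of them lay within 1 kb of its end.

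By the percentiles of its highest gene-end peak in the 4 libraries, ARID1A was most like RRP1, SLC7A11 and MTM1, with mean absolute differences of 0.480, 0.722 and 0.760 percentile points over 4 libraries. RRP1, for example, lay at 85.9 in BRG1 1, 71.7 in BRG1 4, 89.4 in control 1 and 87.6 in control 4.

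ARID1B, the paralog of ARID1A, is the longest of the 8 genes (9791627 to 10227381 on chromosome 1) and held 36 regions, the number ranking it 104 among 19550 genes. Per length it was ordinary, with 7.90 regions per 100 kb, beside a median of 7.82 over all genes. All 4 lists shared 20 of the 36; 3 were control-only and none was BRG1-only. Peaks numbered 23 in BRG1 1 and 27 in BRG1 4, against 32 in control 1 and 29 in control 4. The groups did not overlap, averaging 25.0 ± 2.83 peaks for BRG1 and 30.5 ± 2.12 peaks for control (SD over 2 libraries). The exact permutation p was 0.33, two-sided, which is the smallest that 2 against 2 libraries can give, so no gene could pass 0.05 by it.

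Such an order, fewer peaks in both BRG1 libraries than in either control, was found at 3 of the 8 genes (ARID1B, DPF1 and BCL7C), beside 15.0% of all genes. More peaks in both BRG1 libraries occurred at 0 of the 8, beside 1.24% of all genes. The lists themselves were shorter in BRG1. The BRG1 minus control difference at ARID1B was −3.50 peaks without BRG1 1. With lists of equal length the difference at ARID1B shrank to −1.50 peaks from −5.50, and with lists of 45425 peaks each it turned to 3.50.

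**Figure D4:**
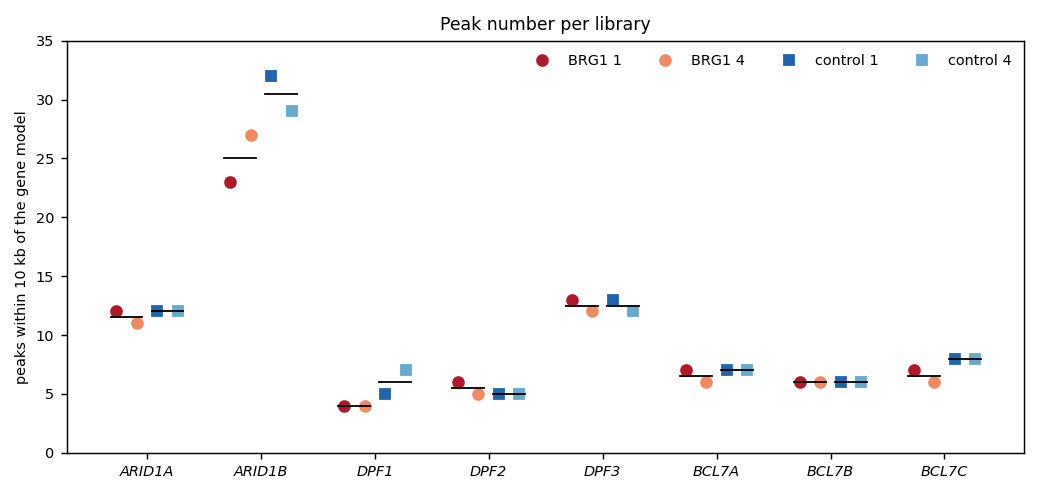
Number of peaks (vertical axis) in the window of each gene, with BRG1 libraries as circles on the left, control libraries as squares on the right and black lines at the group means. ARID1B (23 and 27 against 32 and 29), DPF1 (4 and 4 against 5 and 7) and BCL7C (7 and 6 against 8 and 8) had fewer peaks in both BRG1 libraries, and the groups met at the other 5 genes.

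The control-only regions of ARID1B all lay inside the model and were weak. The region from 9945931 to 9946233 had percentiles of 42.0 in control 1 and 18.5 in control 4, with 22 and 14 tags at the summit. The region from 9965960 to 9966246 had 37.3 and 14.1, with 20 and 13 tags. The third, from 9881467 to 9881752, had 0.600 and 4.95, with 9 and 11 tags, and lay 177 bp from a region called in all 4 libraries. The first 2 lay 15149 and 26398 bp from the nearest such region.

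Strong regions of ARID1B were shared by both groups. The widest of all 66 shared regions (9992644 to 9994353, 1710 bp) lay 201 kb inside its model, at percentiles of 94.5 in BRG1 1, 94.6 in BRG1 4, 96.5 in control 1 and 92.2 in control 4. A region from 10053793 to 10054575 lay at 90.6 and 95.7 in BRG1 and 93.6 and 94.6 in control libraries. Its gene ends ranked lower. At the higher-coordinate end a region from 10226211 to 10227321 reached 35.3 in BRG1 1 and 55.1 in BRG1 4, against 47.0 in control 1 and 36.8 in control 4. The lower-coordinate end had a peak in BRG1 4 and control 1 only, at percentiles of 24.0 and 28.9 (9791066 to 9791344). Beyond the higher end, 5195 bp outside the model, a region from 10232576 to 10233420 lay at 90.9 in BRG1 1 and 77.5 in BRG1 4, against 90.4 in control 1 and 91.1 in control 4.

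DPF2, the widely expressed DPF gene (6870331 to 6886548 on chromosome 2), had 6 regions, 5 of them called in all 4 libraries. Its strongest region crossed the higher-coordinate end (6885902 to 6886897), at percentiles of 88.2 in BRG1 1, 90.9 in BRG1 4, 89.3 in control 1 and 90.1 in control 4. The 4 percentiles overlapped between the groups. Tags at the summit numbered 148 and 155 in BRG1 and 176 and 172 in control libraries. They were not adjusted for depth, which relative to control 1 was 81.2% in BRG1 1, 92.6% in BRG1 4 and 93.5% in control 4. How often raw tags fall in that order over the series was not counted, so no group difference is read from them. Peaks numbered 6 in BRG1 1, 5 in BRG1 4, and 5 in each control. The sixth peak of BRG1 1 (6894153 to 6894359) was weak, at percentile 19.7. Length under peaks was 3550 bp in BRG1 1 and 4030 bp in BRG1 4, against 3144 bp in control 1 and 3159 bp in control 4. Of the 8 genes, DPF2 alone had more length in both BRG1 libraries than in either control, beside 14.1% of all genes (exact permutation p = 0.33 for DPF2, the smallest possible). Less length in both BRG1 libraries was found at ARID1B and DPF1, 2 of the 8, beside 13.5% of all genes. The margins were small. At ARID1B BRG1 4 had 13397 bp against 13433 bp in control 4, and at DPF1 2414 bp against 2476 bp in control 1. A region across an end of TIGD3, a gene derived from a transposon, also lay in the window of DPF2 and was called in all 4 libraries.

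DPF1 (47142006 to 47155340 on chromosome 6) had 7 regions in a short window, 21.0 per 100 kb, which placed it at percentile 95.7 of all genes. All 4 lists shared 4 of the 7, 1 was control-only and 2 were called in control 4 alone. By shared regions per 100 kb DPF1 stood lower, at percentile 87.5 of all genes. Peaks numbered 4 and 4 in BRG1 libraries, against 5 in control 1 and 7 in control 4. Of the 7 in control 4, 1 overlapped the neighbouring model SIPA1L3 (47138628 to 47138827), at percentile 0.687. The BRG1 minus control difference was −2 peaks, −1 without control 4 and −3 without control 1. With lists cut to 90851 peaks each it was −0.5. The control-only region (47140730 to 47140954) lay 1052 bp outside the lower end, at percentile 11.8 in both controls with 18 and 19 tags, and 226 bp from a shared region. Both ends of DPF1 were open in all 4 libraries. At the higher-coordinate end (47155194 to 47155708) the percentiles were 69.9 in BRG1 1 and 30.5 in BRG1 4, against 69.9 in control 1 and 73.3 in control 4. The summit there held 71 tags in BRG1 1 and 29 in BRG1 4, against 81 and 87 in the controls. BRG1 4 was again lowest, while BRG1 1 sat with the controls. The strongest region of DPF1 lay 8.32 kb inside the model (47150329 to 47150921), at 85.3 and 76.0 in BRG1 and 84.9 and 87.0 in control libraries.

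DPF3 (95974422 to 96254354 on chromosome 7) was the least dense of the 8 genes, with 5.67 regions per 100 kb. It had 17 regions, of which 9 were called in all 4 libraries, and peaks numbered 13 in BRG1 1, 12 in BRG1 4, 13 in control 1 and 12 in control 4. Both gene ends were among the strongest of the family. At the lower end (95973190 to 95974131) the percentiles were 94.7 in BRG1 1, 95.2 in BRG1 4, 93.6 in control 1 and 91.1 in control 4. At the higher end (96253571 to 96255051) they were 94.7 and 92.8 in BRG1 and 96.9 and 96.5 in control libraries. At the summit of the lower end stood 186 and 182 tags in BRG1 and 192 and 159 in control libraries. The groups thus overlapped in tags there. At the higher end the summit held 183 and 149 tags in BRG1 and 250 and 233 in control libraries. These tags were not adjusted for depth, which was 81.2% in BRG1 1 and 92.6% in BRG1 4 relative to control 1. The share of regions in the series with that order of raw tags was not counted, so no group difference is read from it. A lncRNA model, LOC110261630, lies inside DPF3 at the higher end, and its peaks cannot be told from those of DPF3.

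The only BRG1-only region of the 8 genes lay in DPF3, 13.8 kb from the lower end (95988254 to 95988510). It had percentiles of 6.78 in BRG1 1 and 38.8 in BRG1 4, with 11 and 18 tags at the summit. It lay 162 bp from a region called in all 4 libraries (95987734 to 95988092) and lost its call when peaks within 200 bp were merged. Having a BRG1-only region thus held for 1 of the 8 genes, beside 3.54% of all genes. Having a control-only region held for 3 (ARID1B, DPF1 and BCL7C), beside 15.9% of all genes. With lists of equal length it held for ARID1B, with 2 such regions, while DPF1 and BCL7C had 0. Longer windows hold more regions and so more chances of either.

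BCL7A (30664592 to 30699421 on chromosome 14) had 7 regions, 6 of them called in all 4 libraries. Open regions clustered at the higher-coordinate end. The strongest (30697124 to 30698170) lay 1251 bp inside that end, at percentiles of 87.3 in BRG1 1 and 92.2 in BRG1 4, against 84.1 in control 1 and 83.2 in control 4. Beside it a region from 30698382 to 30698707 lay at 45.6 and 45.4 in BRG1 and 53.7 and 55.8 in control libraries. The seventh region (30699209 to 30699565) crossed the end itself and was called in all libraries but BRG1 4. It stood at percentile 71.5 in BRG1 1, against 74.4 in control 1 and 67.9 in control 4, with 100, 116 and 96 tags at the summit.

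Regions absent from BRG1 4 alone made up 4 of the 99, beside 6.39% of all regions. Of the 28122 regions of the series at or above percentile 67.9 in each of the other 3 lists, 34 (0.121%) had no peak in BRG1 4. That set was looked at after the value at BCL7A was seen, and no test was made. BRG1 1 carried the peak, so the groups overlapped, and the gap rested on 1 library.

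BCL7B (10850347 to 10887485 on chromosome 3) was the only gene of the 8 whose every region was called in all 4 libraries, 6 of 6, and each library had 6 peaks. Its model overlaps that of TBL2, and both begin at the same base, so regions inside BCL7B also lie inside TBL2. None lay within 1 kb of either end of BCL7B. The strongest region inside the model (10868426 to 10869581) lay 18.1 kb from the lower end, at percentiles of 84.2 in BRG1 1, 87.8 in BRG1 4, 85.0 in control 1 and 88.3 in control 4. The flanks held stronger regions at the ends of the neighbours. That at BAZ1B, a partner of the ISWI remodeller (10843255 to 10844459), was the highest of all 99, at 99.2 and 99.6 in BRG1 and 98.8 and 99.2 in control libraries. That at the higher end of TBL2 (10891703 to 10892832) lay at 91.1 in BRG1 1 and 76.4 in BRG1 4, against 90.6 in control 1 and 90.3 in control 4, with 131 and 57 tags against 135 and 124. BRG1 4 was again the lowest there.

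BCL7C (17547546 to 17589431 on chromosome 3) had 7 regions, 6 of them called in all 4 libraries. Its lower-coordinate end was strongly open (17546791 to 17547832), at percentiles of 95.1 in BRG1 1 and 88.5 in BRG1 4, against 93.1 in control 1 and 93.0 in control 4. Peaks numbered 7 in BRG1 1 and 6 in BRG1 4, against 8 in each control. Part of that gap came from how peaks were split: at the region from 17544427 to 17545408 BRG1 4 had 1 peak of 887 bp, where BRG1 1 and both controls had 2 peaks each. That region lay 2138 bp outside the model of BCL7C and overlapped the neighbouring model LOC100736818. The other part was a control-only region inside the model (17563325 to 17563595), weak in control 1 (percentile 7.25, 23 tags) and in control 4 (30.1, 29 tags). With lists of equal length the 5 control-only regions of the 8 genes came to 2.

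Other BAF genes were set beside these 8 from a list of 20. An end was open in each library at 7 of the 8 genes here and at 19 of the 20, beside 68.2% of all genes. The exception among the 20 was BICRAL, a paralog of the non-canonical subunit BICRA. All 4 lists shared 66 of 99 regions (66.7%) at the 8 genes and 91 of 124 (73.4%) at the 20. BRG1-only regions numbered 1 at the 8 genes, in DPF3, and 1 at the 20, at BICRA, beside 0.741% of all regions. Control-only regions numbered 5 of 99 at the 8 genes, 3 of them in ARID1B. At the 20 they numbered 3 of 124, at SS18, BICRAL and SMARCC1, beside 4.41% of all regions. Counts this small show no contrast between the lists, and none was tested.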

How the data were processed

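ATAC-seq peaks of 4 libraries (2 BRG1, 2 control) were analysed. The authors deposited 1 narrowPeak list per library; FastQC, BWA, Bowtie, SAMtools and MACS2 and the build Sscrofa11.1 are named, with no versions or settings, per the submitters' processing notes. Handling of duplicates and of the Tn5 shift, which can change peak number and width, is not given in the sources used here. Deposited values are the caller's fold (a ratio to the library's own background), −log10 p and q, and a score, all per peak. The deposited score was not used.

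Peaks were merged into regions by overlap of at least 1 bp (Python 3.11.15, pandas 2.3.3). Summit tags and the background were solved from the deposited fold and −log10 p as a Poisson tail (tolerance 0.0001). The merging, the calls of regions and the summit step were tested on simulated data. Gene models came from a RefSeq table without strand, so the planned window at gene starts was replaced by either gene end, and the planned promoter motif search was not run because no sequence was used here. Group means were compared by exact permutation tests (scipy 1.17.1). All 8 members and SMARCA4 are named by rule; other BAF genes only where a count needs them, and neighbouring genes were named after their values were seen. Members, lists and tests were chosen with earlier results of these data known.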

Additional observations from a re-analysis of the deposited data

How the results depend on the processing

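The ratio of peak number over the 8 genes, 0.891, turned to 1.08 with lists of 45425 peaks each, cut by −log10 p, and lay between 0.881 and 0.901 when each library was left out in turn. The ratio of covered length, 0.964, turned to 1.00 (1.00051) with lists of equal length (90851 peaks each), to 1.11 with 45425 peaks each and to 1.03 without BRG1 1, in a range of 0.893 to 1.03 over the libraries left out. BRG1-only regions numbered 1, with a range of 1 to 4 without single libraries and 0 when peaks within 200 bp were merged. With 45425 peaks each the number was again 1, but the region lay at ARID1B and not at DPF3. Control-only regions numbered 5, with a range of 7 to 11 without single libraries. Both ranges come from a rule that asked for a call or an absence in 1 library fewer. Control-only regions came to 2 with 90851 peaks each and 0 with 45425. Regions called in all 4 libraries numbered 66, against 109 with a flank of 50 kb, which holds more sequence, and 33 with 45425 peaks each, where genes with a gene-end peak in all 4 fell to 4. For single genes, the peak difference turned with 45425 peaks each at ARID1A (0.5) and ARID1B (3.50). The cause of these turns was not tested. Under the other alternatives 53 values over the 8 genes kept their side of 1 (ratios) or lay within 1.5 times (counts). The 53 include the counts under an overlap of 50% of the shorter of peak and region, which could not change. Of the single-gene values, 136 lay within 1 SD between replicates (peak differences) or 1.5 times (counts), and 30 moved further. Peak differences of 0.5 or less were found at ARID1A, DPF2, DPF3, BCL7A and BCL7B. Without BRG1 4 those of ARID1A and BCL7A came to 0, and without BRG1 1 that of DPF2 came to 0. Those of DPF2 and BCL7A did not turn under any alternative. That of DPF3, itself 0, lay between −0.5 and 0.5 over the libraries left out. It was 1 with −log10 q of at least 5, 1.5 with 90851 peaks each and −1 with 45425. That of BCL7B, also 0, came to 0.5 with 45425 peaks each.

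Same-numbered libraries share only a number in the labels. With the number as a replicate block, the ratio of peaks was 0.891 (exact sign-flip permutation p = 0.5, the lowest it can reach) and that of length 0.962 (p = 1). Across all regions, the correlation of deviations within a number was −0.0100. The window of 250 bp before and 50 bp after the start was not run, for want of strand. The planned overlap of 50% of the shorter of peak and region could change no call, since every peak lies inside its region; joining peaks by 50% of the shorter peak was added after seeing the data. Depth is known in relative terms only.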
